A study of Homo sapiens with 30 samples.

Results

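The human AKR1 aldo-keto reductases AKR1A1, AKR1B1, AKR1B10, AKR1C1, AKR1C2 and AKR1C3 were followed by RNA sequencing in HT29 cells, an established colorectal adenocarcinoma line, after 24 h with an extract of a herbal formula or with vehicle. The members were taken by name, as the rows of the count table whose Ensembl identifiers carry these 6 symbols. They were chosen with earlier results of these data known. Each symbol had 1 row, so they made up 6 of the 60675 rows, and all 6 passed the filter on low counts in every fit. The extracts, made with 70% ethanol, were given at 20, 100 and 500 µg/mL. Soshiho-tang and Yijin-tang had 3 libraries at each dose, Okbyeongpung-san 2 and Soyo-san 1, and the vehicle, DMSO, had 3. All groups were of the same line and carried no genetic change made for the study. The labels gave 0.1% DMSO and the design text 2% DMSO, and the design text also spoke of dosing at the IC20 of an extract when that was under 500 µg/mL, so both the solvent content and the true doses are uncertain, and label doses are used here. Whether replicates came from separate cultures is not stated, and p-values reflect the spread among the libraries alone, which could be technical.

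Aldo-keto reductases are soluble enzymes that use NADPH to reduce aldehydes and ketones to alcohols. Their substrates include sugars, reactive aldehydes from lipid peroxidation, retinal, steroids and prostaglandins. In human epithelial cells AKR1B10 and the AKR1C genes are well-known targets of NRF2, a transcription factor that electrophiles activate. In many colorectal cancers AKR1B10, which is abundant in normal gut epithelium, is reduced.

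The 30 libraries held between 18.5 M and 36.2 M counts (median 24.2 M). Vehicle libraries had 36.16, 25.41 and 28.71 M counts. Their names placed them in a set apart from the extract libraries, and they stood apart on the second principal component, so that exposure to any extract and the library set cannot be told apart. Each highest dose was therefore compared both with vehicle and with the lowest dose of the same extract. Replicate 3 of Okbyeongpung-san and all Soyo-san libraries belonged to batch D and all others to batch E, with no word in the labels on what a batch is. Markers of the colon epithelium were present, with EPCAM between 444 and 568 CPM (counts per M, on TMM-scaled totals) and KRT8 between 5510 and 7400 CPM. Others were low: CDX1 and CDX2, intestinal transcription factors, had 0.371 to 1.22 and 2.63 to 4.84 CPM, and CEACAM5 had 5.25 to 12.1 CPM. ALB, a hepatocyte gene, was at 0 in 27 libraries, PTPRC, a leukocyte gene, in 20, and COL1A2, a fibroblast gene, in 28, and the other 5 markers of other cell types did not exceed 2.5 CPM. Mitochondrially encoded genes took 9.06% to 10.78% of counts at 500 µg/mL of Soshiho-tang and 11.48% to 13.93% in vehicle, and the part of this in the results was not tested. In a bulk culture fewer cells expressing a gene and less RNA per cell cannot be told apart.

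AKR1B10, AKR1C2 and AKR1C3 were higher at 500 µg/mL of Soshiho-tang, Yijin-tang and Okbyeongpung-san, whether set against vehicle or their own lowest dose. AKR1C1 did likewise, except that with Yijin-tang it passed only against 20 µg/mL. AKR1A1 was slightly lower with Soshiho-tang against vehicle, and AKR1B1 passed in no comparison. In AKR1B10, AKR1C2 and AKR1C3 each of the 9 libraries at 500 µg/mL lay above each of the 21 libraries of vehicle and lower doses. In AKR1C1 this held for 7 of the 9, and in AKR1A1 and AKR1B1 for 0. Among 16886 genes 73 (0.432%) had all 9 libraries above the rest and 63 (0.373%) had all 9 below.

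**Figure D1:**
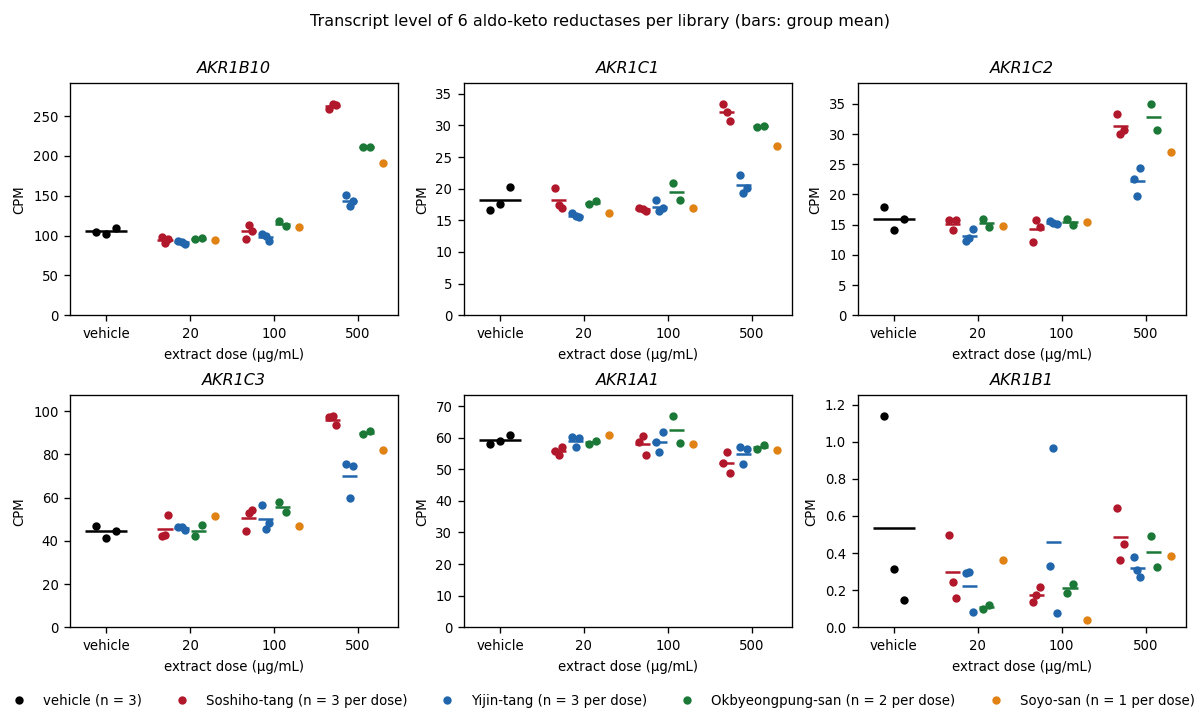
Level in CPM of each of the 6 genes (vertical axes, each from 0) in every library, by extract dose in µg/mL, with vehicle at the low end; points are libraries and bars are group means. In AKR1B10, AKR1C2 and AKR1C3 the 9 libraries at 500 µg/mL lie above all others, and AKR1A1 and AKR1B1 show no such step.

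AKR1B10, which reduces retinal and lipid-derived aldehydes, had the highest level of the 6 and the largest fold change with Soshiho-tang. The gene (ENSG00000198074) lies on the plus strand of chromosome 7 at 134527592 to 134541408 (GRCh38). At 500 µg/mL of Soshiho-tang its libraries had 259.2, 264.7 and 263.9 CPM, against 104.0, 102.3 and 109.2 CPM in vehicle. The groups did not overlap and the spread within each was small beside the gap. The mean was 262.6 ± 2.97 CPM with Soshiho-tang and 105.2 ± 3.60 CPM with vehicle (SD, n = 3 each), a ratio of 2.5 and a log2 fold change of 1.31 ± 0.05 (SE, edgeR quasi-likelihood test, adjusted p = 6.3e-17).

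With Okbyeongpung-san at 500 µg/mL AKR1B10 had 210.9 and 210.5 CPM, the first library from batch E and the second from batch D. With a single library from each batch, the part of batch in this level was not tested. The log2 fold change of AKR1B10 against vehicle was 1.01 ± 0.06 with this extract (SE, edgeR adjusted p = 4e-06). With Yijin-tang at 500 µg/mL the libraries had 150.6, 136.5 and 143.3 CPM, all above the 3 vehicle libraries. That change was the smallest of the tested extracts, with a log2 fold change of 0.44 ± 0.05 (SE, edgeR adjusted p = 6.5e-07). The single Soyo-san library at 500 µg/mL had 191.3 CPM (95% Clopper-Pearson interval 185.8 to 197.0, counting error only), between the Okbyeongpung-san and Yijin-tang libraries.

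Below 500 µg/mL AKR1B10 stayed close to vehicle. At 20 µg/mL it had 98.67, 90.97 and 95.22 CPM with Soshiho-tang, 93.78, 92.41 and 89.98 CPM with Yijin-tang, and 95.34 and 96.72 CPM with Okbyeongpung-san. Every one of these 8 libraries was under the lowest vehicle library, at 102.3 CPM. The share of all genes separated in this way was not counted, and exposure to any extract and the library set cannot be told apart. At 100 µg/mL it had 96.3, 113.6 and 106.2 CPM with Soshiho-tang, 101.5, 99.55 and 93.33 CPM with Yijin-tang, and 118.7 and 111.5 CPM with Okbyeongpung-san. Most of the rise therefore lay between 100 and 500 µg/mL. The means at 100 µg/mL were 1.11, 1.07, 1.2 and 1.17 times those at 20 µg/mL with Soshiho-tang, Yijin-tang, Okbyeongpung-san and Soyo-san, so a graded rise is not excluded. Over the 13 groups the order of the means was Soshiho-tang, Okbyeongpung-san, Soyo-san and Yijin-tang at 500 µg/mL, with no overlap between neighbours, then Okbyeongpung-san at 100 µg/mL. Next came Soyo-san at 100 µg/mL, which overlapped Soshiho-tang at 100 µg/mL, which in turn overlapped vehicle.

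Set against 20 µg/mL of the same extract, the increases in AKR1B10 were slightly larger. The log2 fold change was 1.46 ± 0.05 with Soshiho-tang (SE, edgeR adjusted p = 5.4e-18) and 1.14 ± 0.07 with Okbyeongpung-san (SE, edgeR adjusted p = 4e-06). With Yijin-tang it was 0.64 ± 0.05 (SE, edgeR adjusted p = 7e-09).

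The AKR1C genes lie side by side on chromosome 10 and are close copies, which limits how well short reads tell them apart. AKR1C1 (ENSG00000187134, plus strand) spans 4963253 to 4983283, AKR1C2 (ENSG00000151632, minus strand) 4987400 to 5018031, and AKR1C3 (ENSG00000196139, plus strand) 5035354 to 5107686 (GRCh38). Each coding sequence has 969 bases in GENCODE 29. The first 90 coding bases of the trio are shown because they hold the kind of bases by which a read can be assigned, with capitals at the 11 positions where the 3 sequences differ:
AKR1C1: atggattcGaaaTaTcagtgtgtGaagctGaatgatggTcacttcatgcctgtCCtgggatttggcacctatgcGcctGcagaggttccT
AKR1C2: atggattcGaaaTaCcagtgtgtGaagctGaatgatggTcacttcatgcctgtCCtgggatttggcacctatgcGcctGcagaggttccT
AKR1C3: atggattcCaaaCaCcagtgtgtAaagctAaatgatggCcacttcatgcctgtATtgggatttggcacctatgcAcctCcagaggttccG
Most of these positions set AKR1C3 apart, and AKR1C1 and AKR1C2 are nearly the same here.

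AKR1C1 and AKR1C2 differ at 19 of 969 coding bases (98% identity), and 10 of these fall in bases 73 to 162, which are shown for that reason with the differing positions in capitals:
AKR1C1: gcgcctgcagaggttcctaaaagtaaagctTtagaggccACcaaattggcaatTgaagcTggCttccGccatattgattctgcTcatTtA
AKR1C2: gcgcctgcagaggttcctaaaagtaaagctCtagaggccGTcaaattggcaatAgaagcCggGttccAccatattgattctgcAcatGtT
Of the 870 windows of 100 bases in the AKR1C1 coding sequence, the length of 1 read, 18.9% occur unchanged in AKR1C2. AKR1C3 shares 91.4% of its coding bases with AKR1C1 and 91.0% with AKR1C2. Counting windows found unchanged in any related gene compared, the share was 20.7% for AKR1C1, 26.4% for AKR1C2, 9.8% for AKR1C3, 2% for AKR1B10, and 0 for AKR1A1 and AKR1B1. RSEM divides such reads by estimate, so the split between AKR1C1 and AKR1C2 is less certain than their sum.

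AKR1C3, which makes active androgens and prostaglandin F, was the most abundant of the trio and moved with AKR1B10. With Soshiho-tang at 500 µg/mL it had 97.14, 97.58 and 93.34 CPM, against 46.88, 41.47 and 44.56 CPM in vehicle. At the same dose Okbyeongpung-san libraries had 89.25 and 90.69 CPM and Yijin-tang libraries 75.44, 59.88 and 74.74 CPM. Each of the 8 libraries was above the vehicle range, and the Yijin-tang group had the widest spread.

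Against vehicle the log2 fold change of AKR1C3 was 1.11 ± 0.10 with Soshiho-tang (SE, edgeR adjusted p = 9.2e-08) and 1.02 ± 0.08 with Okbyeongpung-san (SE, edgeR adjusted p = 2.1e-05). With Yijin-tang it was 0.66 ± 0.10 (SE, edgeR adjusted p = 0.00017). Against 20 µg/mL of the same extract it was 1.07 ± 0.10, 1.01 ± 0.09 and 0.61 ± 0.10 for Soshiho-tang, Okbyeongpung-san and Yijin-tang, each past the threshold (edgeR adjusted p = 2.6e-07, 0.00013 and 0.0023). The lower doses of AKR1C3 gave 42.06 to 51.85 CPM with Soshiho-tang at 20 µg/mL and 44.68 to 54.21 CPM at 100 µg/mL, ranges that overlap each other. Okbyeongpung-san at 100 µg/mL, with 58.11 and 53.29 CPM, was above its own 20 µg/mL libraries at 42.4 and 47.09 CPM, but the difference did not pass the test.

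AKR1C2, a hydroxysteroid dehydrogenase that inactivates dihydrotestosterone, had 33.37, 29.93 and 30.61 CPM at 500 µg/mL of Soshiho-tang, against 17.86, 14.17 and 15.9 CPM in vehicle. Okbyeongpung-san libraries had 34.93 and 30.68 CPM and Yijin-tang libraries 22.59, 19.74 and 24.31 CPM at that dose. All 8 lay above the highest vehicle library. The log2 fold change against vehicle was 0.95 ± 0.08 with Soshiho-tang (SE, edgeR adjusted p = 1.4e-09), 1.04 ± 0.10 with Okbyeongpung-san (adjusted p = 0.00015) and 0.47 ± 0.09 with Yijin-tang (adjusted p = 0.00039). Against 20 µg/mL of the same extract it was 1.04 ± 0.09 with Soshiho-tang (SE, edgeR adjusted p = 7.4e-10), 1.12 ± 0.11 with Okbyeongpung-san (adjusted p = 0.00055) and 0.77 ± 0.09 with Yijin-tang (adjusted p = 1.8e-05).

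AKR1C1, which inactivates progesterone, had 33.33, 32.17 and 30.71 CPM at 500 µg/mL of Soshiho-tang, against 16.61, 17.65 and 20.3 CPM in vehicle. Okbyeongpung-san libraries had 29.74 and 29.98 CPM. Yijin-tang libraries had 22.11, 19.37 and 20.13 CPM, which overlapped vehicle. The log2 fold change against vehicle was 0.82 ± 0.07 with Soshiho-tang (SE, edgeR adjusted p = 3.3e-10) and 0.72 ± 0.09 with Okbyeongpung-san (adjusted p = 0.0012). With Yijin-tang it was 0.18 ± 0.07 and did not pass (adjusted p = 0.071, 95% interval 0.03 to 0.33). Without vehicle replicate 3 the Yijin-tang value was 0.27 and passed (adjusted p = 0.014). Against 20 µg/mL the log2 fold change was 0.82 ± 0.07 with Soshiho-tang (SE, edgeR adjusted p = 6.1e-10), 0.75 ± 0.10 with Okbyeongpung-san (adjusted p = 0.005) and 0.39 ± 0.07 with Yijin-tang (adjusted p = 0.003). The Okbyeongpung-san call was lost when any 1 of the 4 libraries of these groups was left out, with adjusted p between 0.064 and 0.13 and log2 values between 0.73 and 0.76.

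**Figure D2:**
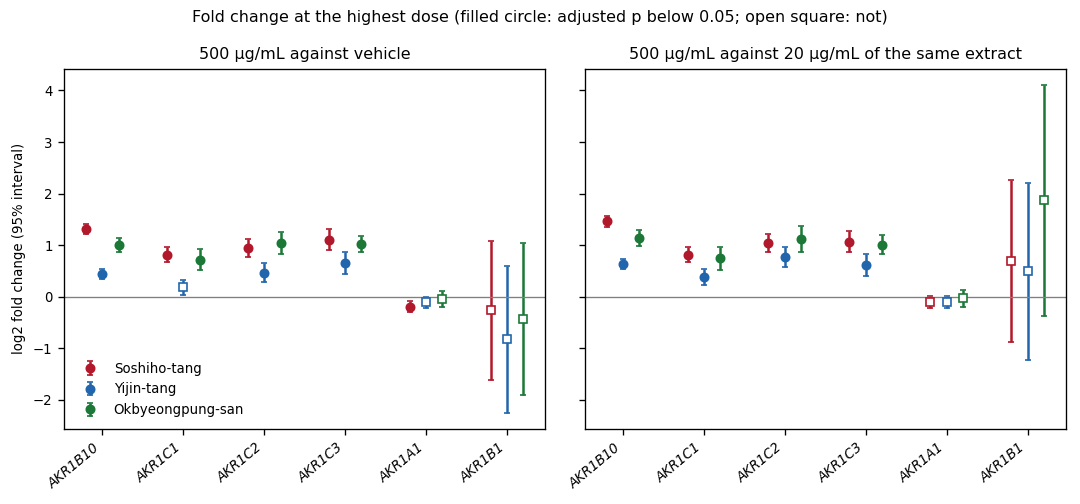
Log2 fold change with its 95% interval (vertical axis) for each gene at 500 µg/mL of Soshiho-tang, Yijin-tang and Okbyeongpung-san, against vehicle (left panel) and against 20 µg/mL of the same extract (right panel); filled circles passed an adjusted p of 0.05. AKR1B10 with Soshiho-tang is highest among the filled circles in both panels, at 1.31 and 1.46, and the intervals of AKR1B1 are wide.

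Summed over the trio, which does not depend on how reads were divided within it, the level was 159.4 ± 4.56 CPM at 500 µg/mL of Soshiho-tang, 152.6 ± 1.84 CPM of Okbyeongpung-san and 112.8 ± 11.9 CPM of Yijin-tang, against 78.5 ± 4.50 CPM in vehicle (SD, n = 3, 2, 3 and 3). The ratios to vehicle were 2.03, 1.94 and 1.44. The Soyo-san library at 500 µg/mL summed to 135.9 CPM, a ratio of 1.73. At 20 and 100 µg/mL the ratios of the group means lay between 0.954 and 1.16. The split changed little beside this, with a mean AKR1C3 share between 57.5% and 62.5% in the extract groups and of 56.5% in vehicle. The share of AKR1C1 was 20.1% with Soshiho-tang at 500 µg/mL and 23.2% in vehicle, where it ranged between 20.4% and 25.1%.

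**Figure D3:**
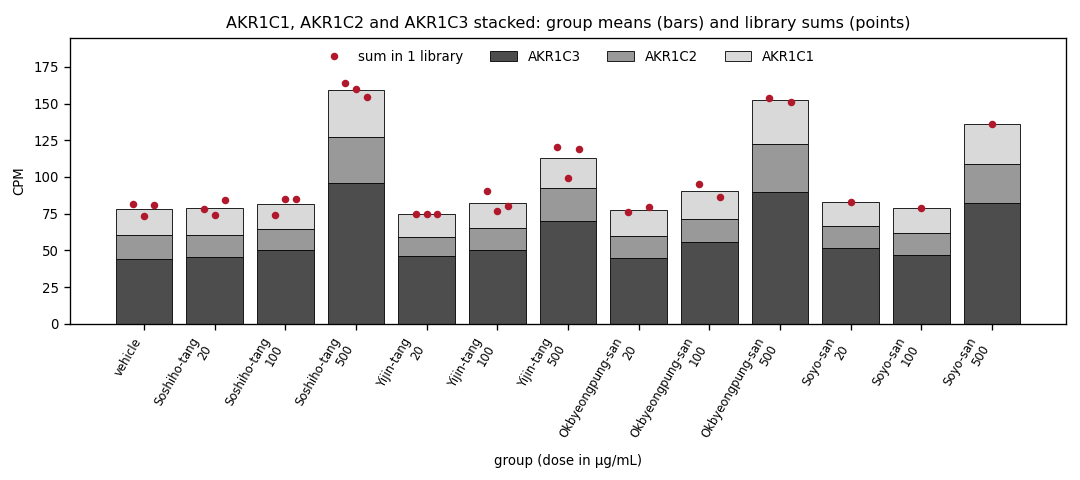
Stacked group means of AKR1C3, AKR1C2 and AKR1C1 in CPM (bars, vertical axis from 0) in the 13 groups, with the sum in each library as points. The sums at 500 µg/mL are 159.4, 112.8, 152.6 and 135.9 CPM for Soshiho-tang, Yijin-tang, Okbyeongpung-san and Soyo-san, against 78.5 CPM in vehicle.

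AKR1A1, the aldehyde reductase that also acts on glucuronate, is on the plus strand of chromosome 1 at 45550543 to 45570049 (ENSG00000117448) and was slightly lower with Soshiho-tang. Libraries at 500 µg/mL of Soshiho-tang had 51.85, 55.41 and 48.75 CPM, against 58.05, 58.96 and 60.76 CPM in vehicle. The Soshiho-tang libraries were all lower than vehicle, by a small margin. How many of all genes were separated in this way was not counted. The log2 fold change was -0.19 ± 0.05 (SE, edgeR adjusted p = 0.0049), and without Soshiho-tang replicate 3 it was -0.15 and no longer passed. Against 20 µg/mL of Soshiho-tang it was -0.11 ± 0.05 and did not pass (edgeR adjusted p = 0.16). With Yijin-tang and Okbyeongpung-san at 500 µg/mL it was -0.11 and -0.05 against vehicle, neither past the test (edgeR adjusted p = 0.15 and 0.72).

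AKR1B1, the aldose reductase that turns glucose into sorbitol, is the neighbour of AKR1B10 on the minus strand of chromosome 7 at 134442350 to 134459284 (ENSG00000085662) and was barely detected. It had 0.642, 0.361 and 0.451 CPM at 500 µg/mL of Soshiho-tang, against 1.14, 0.317 and 0.148 CPM in vehicle. The vehicle values came from 41, 8 and 4 counts, so that a single library set the vehicle mean. No comparison of AKR1B1 passed: against vehicle the log2 fold change with Soshiho-tang was -0.27 ± 0.64 (SE, edgeR adjusted p = 0.78, 95% interval -1.61 to 1.08), and without vehicle replicate 1 it was 1.03. Its coding sequence is 77.1% identical to that of AKR1B10 and shares no window of 100 bases with it. The first 90 coding bases of the pair, with the 30 differing positions in capitals, show how much further apart they are than the AKR1C genes:
AKR1B10: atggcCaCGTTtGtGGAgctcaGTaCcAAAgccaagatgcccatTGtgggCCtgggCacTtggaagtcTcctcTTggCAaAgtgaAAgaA
AKR1B1: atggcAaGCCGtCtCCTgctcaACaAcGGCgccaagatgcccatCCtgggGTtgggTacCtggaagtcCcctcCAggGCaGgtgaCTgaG
AKR1B15, the closest relative of AKR1B10, was at 0.0167 CPM at 500 µg/mL of Soshiho-tang and 0.0401 CPM in vehicle.

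Compared per length, AKR1B10 also led. At 500 µg/mL of Soshiho-tang and in vehicle it had 151 and 60.3 CPM per kb of exon union, against 21.2 and 9.77 for AKR1C3 and 16.7 and 19.0 for AKR1A1. AKR1C2 had 4.84 and 2.47, AKR1C1 3.66 and 2.08, and AKR1B1 0.132 and 0.146 CPM per kb in the same 2 groups. The exon union of AKR1C1, 8765 bases, holds a long annotated transcript, and per kb of coding length, an alternative chosen after seeing the data, AKR1C1 and AKR1C2 were close in level at 33.1 and 32.3 CPM per kb with Soshiho-tang and 18.8 and 16.5 CPM per kb in vehicle. AKR1C3 then was above AKR1A1 with Soshiho-tang, at 99.1 against 53.3, and below it in vehicle, at 45.7 against 60.8, as with the exon union.

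In counts over the 6 genes, Soshiho-tang at 500 µg/mL against vehicle had 4 higher, where 19.3% of all genes tested were higher, and 1 lower, where 19.9% of all genes were lower, so that comparison called much of the transcriptome. Against 20 µg/mL of Soshiho-tang 4 of 6 were higher, beside 13% of all genes. With Yijin-tang 3 of 6 were higher than in vehicle (11.0% of all genes were) and 4 of 6 higher than at 20 µg/mL, where 0.679% of all genes were. The 305 genes that passed in either direction in that comparison numbered between 147 and 222 when any 1 of its 6 libraries was left out, with 4 members passing each time. With Okbyeongpung-san 4 of 6 were higher than in vehicle (2.19% of all genes were) and 4 of 6 than at 20 µg/mL, where 0.247% of all genes were. In that last comparison 88 genes passed in either direction, and between 12 and 21 when a library was left out, with 3 members passing each time. In these Okbyeongpung-san libraries replicate 2 was of batch E and replicate 3 of batch D at each dose. With the replicate number as a block 155 genes passed, 0.488% of all genes being higher, with 4 members again. The block also covered vehicle replicates 2 and 3, both of batch E, so it is not a block by batch. These comparisons share vehicle libraries or high-dose libraries, so they do not repeat each other independently. Because the members were chosen with earlier results known, the shares of all genes give scale and are not a test.

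Between 100 and 20 µg/mL no member and no other gene passed with any of the 3 extracts by edgeR, although 479, 508 and 369 genes had an unadjusted p below 0.05 with Soshiho-tang, Yijin-tang and Okbyeongpung-san. DESeq2 called no member either, and 4 genes with Okbyeongpung-san. At 100 µg/mL against vehicle 0 members passed with each extract, where 18.3%, 18.4% and 0.108% of all genes passed with Soshiho-tang, Yijin-tang and Okbyeongpung-san. These shares depended on the fit, and with only the groups compared 559, 575 and 3 genes passed. At 20 µg/mL against vehicle AKR1B10 was lower with Soshiho-tang (log2 fold change -0.15, edgeR adjusted p = 0.038), 1 of 6 members where 7.48% of all genes were lower. With Yijin-tang at 20 µg/mL AKR1B10 (-0.19, edgeR adjusted p = 0.0074) and AKR1C2 (-0.30, adjusted p = 0.025) were lower, 2 of 6 members where 7.68% of all genes were lower. With Okbyeongpung-san 0 of 6 passed, and 0.273% of all genes. These low-dose calls ended when only the groups compared were fitted, and the Soshiho-tang call also without vehicle replicate 3 or replicate 2 or 3 of the 20 µg/mL group. The AKR1C2 call with Yijin-tang was lost without vehicle replicate 1 or 3 or replicate 1 or 2 of the 20 µg/mL group (edgeR adjusted p between 0.054 and 0.14), and the AKR1B10 call with Yijin-tang held whichever of the 6 libraries was left out.

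The extracts differed at 500 µg/mL. Soshiho-tang was above Yijin-tang in 4 of 6 members (6.69% of all genes were), with log2 differences of 0.87 ± 0.05 for AKR1B10, 0.63 ± 0.07 for AKR1C1, 0.48 ± 0.08 for AKR1C2 and 0.45 ± 0.10 for AKR1C3 (SE, edgeR adjusted p = 4e-13, 1.2e-07, 0.00016 and 0.0039). Every Soshiho-tang library was above every Yijin-tang library in these 4 genes, and the share of all genes separated in this way was not counted. Soshiho-tang was above Okbyeongpung-san in 1 of 6 members, AKR1B10, by 0.32 ± 0.05 (SE, edgeR adjusted p = 9.4e-05), where 3.87% of all genes were. The genes passing in either direction numbered 1132, and 525 or 572 without Okbyeongpung-san replicate 2 or 3. The AKR1C differences between those extracts did not pass and their 95% intervals were -0.05 to 0.25 for AKR1C1, -0.26 to 0.10 for AKR1C2 and -0.11 to 0.30 for AKR1C3.

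Yijin-tang was below Okbyeongpung-san in 3 of 6 members (0.202% of all genes were), with log2 differences of -0.55 ± 0.05 for AKR1B10, -0.53 ± 0.08 for AKR1C1 and -0.56 ± 0.09 for AKR1C2 (SE, edgeR adjusted p = 1.4e-07, 0.00013 and 0.00098). The AKR1C2 call was lost without Okbyeongpung-san replicate 2, at -0.46 (adjusted p = 0.15). Over all genes 55 passed in either direction, and between 27 and 35 when any 1 of the 5 libraries was left out. AKR1C3 was lower by a log2 difference of -0.36 ± 0.10 that did not pass (edgeR adjusted p = 0.24). Of the 2 Okbyeongpung-san libraries 1 came from batch D, and the part of that batch in these differences was not tested beyond leaving each library out.

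The increase over the dose range was itself compared between Soshiho-tang and Yijin-tang as an interaction, the change between 20 and 500 µg/mL with Soshiho-tang minus that with Yijin-tang. It passed in 2 of 6 members, where 2.27% of all genes had a larger increase with Soshiho-tang: AKR1B10 at 0.82 ± 0.07 and AKR1C1 at 0.43 ± 0.10 (SE, edgeR adjusted p = 7.3e-09 and 0.01). For AKR1C2 it was 0.27 ± 0.13 (edgeR adjusted p = 0.3) and for AKR1C3 0.46 ± 0.14 (adjusted p = 0.078), neither past the threshold. The AKR1C3 value passed with DESeq2 (0.47, adjusted p = 0.0085), with no filter (0.46, edgeR adjusted p = 0.042), when all 27 replicated libraries shared a fit (0.46, adjusted p = 0.048) and without Soshiho-tang replicate 3 at 20 µg/mL (0.57, adjusted p = 0.017).

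Soyo-san had 1 library per dose, so its values have no test. At 500 µg/mL it differed from the vehicle mean by 0.86 for AKR1B10, 0.56 for AKR1C1, 0.77 for AKR1C2 and 0.89 for AKR1C3 on the log2 CPM scale, and by -0.08 for AKR1A1. The median of the 6 was 0.66, beside -0.01 over all genes. At 20 µg/mL its AKR1B10 level was 94.41 CPM (95% interval 90.62 to 98.32) and at 100 µg/mL 110.2 CPM (106.2 to 114.3), near the levels of the other extracts at these doses. AKR1C3 had 51.68 CPM at 20 µg/mL, 46.69 CPM at 100 µg/mL and 82.09 CPM at 500 µg/mL.

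Across the 13 group means the 4 raised genes followed each other, with Pearson's r between 0.943 and 0.976 on log2 levels, while AKR1A1 had r between -0.69 and -0.62 with them. These are descriptions over means that share libraries and depth. The genes with patterns most like AKR1B10 were UBL4A (r = 0.985), OSGIN1 (0.982), PTGR1 (0.981), PFN2 (0.981) and UGT1A8 (0.981). Pearson's r takes no account of size. Over the group means these genes spanned 0.253, 0.761, 0.367, 0.303 and 0.464 on the log2 scale. The log2 fold change of AKR1B10 was 1.31 at 500 µg/mL of Soshiho-tang against vehicle. For AKR1C1 they began with OSGIN1 (0.971), PTGR1 (0.967) and HMOX1 (0.965), for AKR1C2 with UGT1A8 (0.963), and for AKR1C3 with NQO1 (0.981) and UGT1A10 (0.978). UGT1A genes share most of their exons, so their counts are uncertain one by one. For AKR1A1 the closest was ARPC1B (0.928) and for the barely detected AKR1B1 FXR2 (0.885).

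Of 11 other aldo-keto reductase genes 8 were tested, and AKR1B15, AKR1C8 and AKR1D1 were too low. At 500 µg/mL of Soshiho-tang 0 were higher and 3 lower than at 20 µg/mL, where 13.6% of all genes were lower. Against vehicle likewise 0 were higher and 3 lower, beside 19.3% and 19.9% of all genes. The 3 were AKR7A2, an aflatoxin aldehyde reductase, AKR7A3, its close relative, and AKR7L. AKR7A3 had 20.4 ± 1.16 CPM with Soshiho-tang and 24.9 ± 1.06 CPM with vehicle (SD, n = 3 each). Its log2 fold change against 20 µg/mL was -0.41 ± 0.06 (SE, edgeR adjusted p = 2.8e-06), and that of AKR7A2 was -0.25 ± 0.05 (adjusted p = 0.00028). With Yijin-tang and Okbyeongpung-san 0 of the 8 passed in either direction against 20 µg/mL, where only 305 of 15895 and 88 of 15764 genes passed. AKR1C4, the liver member of the AKR1C cluster, was at 0.263 ± 0.053 CPM with Soshiho-tang at 500 µg/mL and 0.301 ± 0.055 CPM in vehicle, and the voltage-gated potassium channel subunits KCNAB1, KCNAB2 and KCNAB3 did not pass.

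Among 21 other carbonyl and enone reductases tested, 6 were higher and 0 lower at 500 than at 20 µg/mL of Soshiho-tang, beside 13% of all genes higher and 13.6% lower, with a median log2 fold change of 0.02 beside -0.01 over all genes. They included DHRS9, a retinol dehydrogenase, at 1.84 ± 0.27 and RDH10, which makes retinal, at 0.52 ± 0.05 (SE, edgeR adjusted p = 5.7e-06 and 2.8e-09). DHRS9 was low in level, with means of 2.43 CPM at 500 and 0.684 CPM at 20 µg/mL of Soshiho-tang. With the replicate block 1 of the 21 was lower with Soshiho-tang, beside 14.2% of all genes. With Yijin-tang 2 of the 21 were higher and 1 lower, beside 0.679% and 1.24% of all genes. With Okbyeongpung-san 0 passed in either direction, where 88 of 15764 genes did. Among 16 tested genes of retinoid, steroid and prostaglandin metabolism 7 were higher and 1 lower with Soshiho-tang against 20 µg/mL, beside the same 13% and 13.6% of all genes. Among them were ALDH1A3, which oxidises retinal to retinoic acid, at 1.69 ± 0.17, and PTGS2, the inducible cyclooxygenase, at 0.70 ± 0.07 (SE, edgeR adjusted p = 2.7e-06 and 3.2e-09). RDH10, DHRS3, DHRS9 and HSD17B2 also stand in the list of reductases, and ALDH1A3 in that of AHR targets, so these counts overlap. With Yijin-tang 1 of these 16 was higher and 1 lower, beside 0.679% and 1.24% of all genes. With Okbyeongpung-san 0 of the 17 tested passed, where 88 of 15764 genes did. With the replicate block 1 was higher, beside 0.488% of all genes. Of 5 tested genes of the polyol pathway and osmotic response 0 passed against 20 µg/mL with any of the 3 extracts. Over all genes 4233, 305 and 88 passed there with Soshiho-tang, Yijin-tang and Okbyeongpung-san. Under the replicate block 1 of the 5 was lower with Soshiho-tang, beside 14.2% of all genes. Against vehicle 2 of the 5 were higher and 1 lower at 500 µg/mL of Soshiho-tang, beside 19.3% and 19.9% of all genes. SLC5A3, a myo-inositol transporter, was at 0.44 ± 0.05, NFAT5, the osmotic stress factor, at 0.35 ± 0.05, and KHK, ketohexokinase, at -0.47 ± 0.13 (SE, edgeR adjusted p = 2.5e-07, 1.9e-06 and 0.0062). At 20 and 100 µg/mL of Soshiho-tang 3 of the 5 were higher than in vehicle, beside 9.36% and 9.8% of all genes. The same count was found with Yijin-tang at 20 and 100 µg/mL, beside 9.17% and 9.71%. With Okbyeongpung-san 0 of the 5 passed at these doses, where 0.273% and 0.108% of all genes did. Exposure to any extract and the library set cannot be told apart in these comparisons.

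Of 26 NRF2 target genes that are not aldo-keto reductases 26 were higher at 500 than at 20 µg/mL of Soshiho-tang, beside 13% of all genes, with a median log2 fold change of 0.52 against -0.01 over all genes. With the replicate block 25 of the 26 were higher there, beside 13.4% of all genes. With Yijin-tang 10 were higher (0.679% of all genes were) and with Okbyeongpung-san 8 (0.247%), or 14 with the replicate block (0.488%). With either extract 0 were lower, and the medians were 0.19 and 0.35, beside 0.00 over all genes in both. The gene lists were chosen with earlier results of these data known, so the shares of all genes are not a test. GCLM, a subunit of glutamate-cysteine ligase, was at 1.09 ± 0.07, 0.38 ± 0.07 and 0.67 ± 0.11 with Soshiho-tang, Yijin-tang and Okbyeongpung-san (SE, edgeR adjusted p = 4.5e-11, 0.0033 and 0.014). HMOX1, heme oxygenase, was at 1.34 ± 0.09, 0.32 ± 0.09 and 1.00 ± 0.16 (SE, edgeR adjusted p = 1.8e-12, 0.076 and 0.013). Of 9 genes for NRF2 and its regulators 7 were higher with Soshiho-tang against 20 µg/mL, beside 13% of all genes. An example was SQSTM1, an autophagy receptor that binds KEAP1, at 0.54 ± 0.03 (SE, edgeR adjusted p = 1.8e-12). With Yijin-tang or Okbyeongpung-san 0 of the 9 were higher, beside 0.679% and 0.247% of all genes. Under the replicate block 2 were higher with Okbyeongpung-san, beside 0.488%.

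Of 10 tested targets of AHR, the receptor for planar aromatic ligands, 10 were higher with Soshiho-tang, 7 with Yijin-tang and 6 with Okbyeongpung-san against 20 µg/mL, and 0 lower. Over all genes 13%, 0.679% and 0.247% were higher in these comparisons. With the replicate block 6 of the 10 were higher with Yijin-tang (0.736% of all genes were) and 8 with Okbyeongpung-san (0.488%). CYP1A1, its most inducible target, had 128 ± 4.84 CPM at 500 µg/mL of Soshiho-tang, 7.72 ± 1.53 CPM of Yijin-tang and 3.45 ± 0.919 CPM of Okbyeongpung-san, against 0.602 ± 0.088 CPM in vehicle (SD, n = 3, 3, 2 and 3). Yijin-tang was above Okbyeongpung-san here by a log2 difference of 1.13 ± 0.33 that did not pass (SE, edgeR adjusted p = 0.29). NQO1, which belongs to both lists, had 750 ± 6.01, 592 ± 18.9 and 682 ± 19.5 CPM with Soshiho-tang, Yijin-tang and Okbyeongpung-san at 500 µg/mL, against 481 ± 11.5 CPM in vehicle (SD, same n), and Yijin-tang was below Okbyeongpung-san by a log2 difference of -0.21 ± 0.05 that did not pass either (SE, edgeR adjusted p = 0.11).

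**Figure D4:**
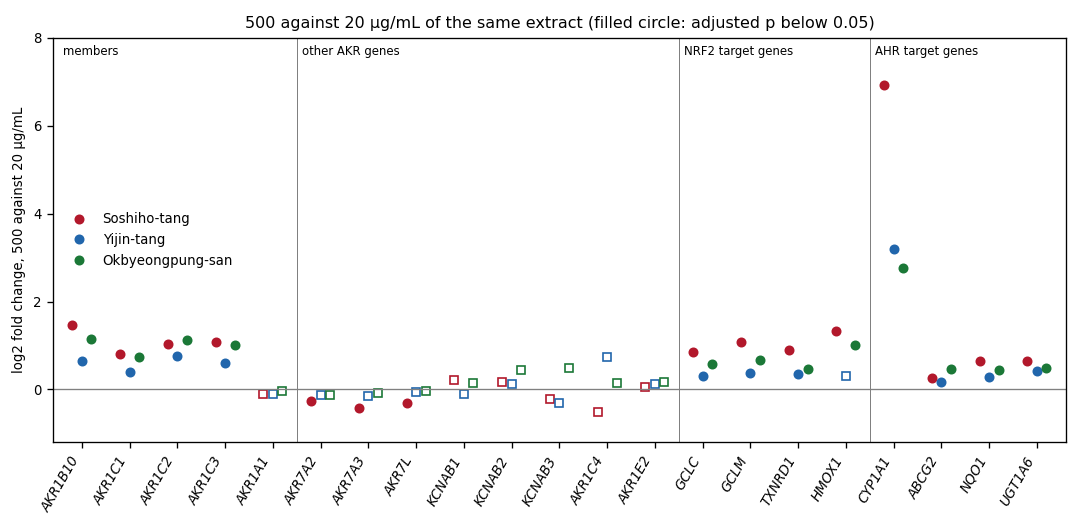
Log2 fold change at 500 against 20 µg/mL of the same extract (vertical axis) for 5 of the 6 members, for the other aldo-keto reductase genes tested and for examples of NRF2 and AHR target genes; filled circles passed an adjusted p of 0.05 and open squares did not. CYP1A1 with Soshiho-tang stands highest at 6.93, and AKR7A2, AKR7A3 and AKR7L with Soshiho-tang lie below 0.

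Promoter windows of RefSeq (GRCh38.p14, 250 bases before to 50 after a start) were found for 5 of the 6 members, AKR1B10 not being among them. The antioxidant response element TGACNNNGC, searched on both strands, was in 0 of these windows and in 13.3% of all 35116 promoters. The AHR core GCGTG, on both strands, was in the windows of AKR1B1 alone and in 36.5% of all promoters. The windows of AKR1C1 and AKR1C2 were 98.6% identical (288 of 292 aligned bases).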

How the data were processed

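The values deposited were expected counts of RSEM for each gene, with no scaling across libraries, as the numbers themselves show. The submitters' processing notes name FastQC 0.11.9, Trim Galore 0.6.5, STAR 2.7.3a, RSEM 1.3.3 and the build GRCh38. Per the labels' protocols, libraries were directional with 100 bp paired-end reads. The annotation release is not given in the sources used here. Of the table's columns 30 had no name and were not used. The labels gave groups, doses and replicate numbers.

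Expected counts were rounded and analysed in R 4.3.3 with edgeR 4.0.16: filterByExpr, TMM, and the robust quasi-likelihood F-test, with Benjamini-Hochberg adjustment over all genes of a comparison and a threshold of 0.05. Vehicle, Soshiho-tang and Yijin-tang shared a fit (21 libraries, 15895 genes), as did vehicle and Okbyeongpung-san (9 libraries, 15764 genes); Okbyeongpung-san was compared with other extracts in a fit of 27 libraries (16308 genes). Standard errors derive from the F statistic. CPM use TMM-scaled totals, and likeness is Pearson's r over 13 group means of log2 CPM among genes of at least 5 CPM. The scripts were tested on simulated data. Coordinates and coding sequences are from GENCODE 29. Replicate pairs all differed by more than sampling noise. Chi-square over its degrees of freedom was 10.25 to 18.63 in vehicle and 2.3 to 9.55 in the extract groups, while a shared fit uses the same spread for all its groups. Intervals of single Soyo-san libraries cover counting error only, and those of log2 fold changes derive from the F statistic and include the spread between libraries. Replicate numbers of Okbyeongpung-san pair its doses, since the labels put number 2 in batch E and number 3 in batch D at each dose, although the difference between the numbers correlated between doses at r of only 0 to 0.04. The replicate block used the numbers of all libraries in a fit, vehicle included, and so does not equal batch.

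The members and gene lists were chosen with earlier results of these data known. Named genes are the members, all other superfamily genes, and up to 4 genes per further list with the smallest adjusted p in Soshiho-tang at 500 µg/mL against vehicle, CYP1A1, NQO1 and the 5 genes most like each member; cell markers are named besides. Alternatives were DESeq2 1.42.0, RLE scaling, no filter, other sets of libraries in the fit, a replicate block, leaving out each library, plain library totals, AKR1C4 added to the AKR1C sum and coding length. Wortmannin, which the design text names as a control, is not analysed here.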

Additional observations from a re-analysis of the deposited data

Results flagged for a closer look

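The increase of AKR1B10 between 20 and 500 µg/mL was larger with Soshiho-tang than with Yijin-tang by 0.8231 on the log2 scale (edgeR interaction test, adjusted p = 7.3e-09), and it kept between 0.79 and 0.86 when any 1 of the 12 libraries was left out. All 3 Soshiho-tang libraries at 500 µg/mL were above all 3 Yijin-tang libraries, a separation whose share over all genes was not counted. For AKR1C1 the same difference was 0.4308 (edgeR interaction test, adjusted p = 0.01), with 0.39 to 0.51 on leaving out a library. Both passed the test of the difference between the extracts.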

How the results depend on the processing

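At 500 µg/mL AKR1B10, AKR1C2 and AKR1C3 kept their direction and their call against vehicle and against 20 µg/mL under every alternative run. Counts of members past the test that moved by more than 1.5 times belonged to the lower doses against vehicle. For Soshiho-tang, 100 µg/mL gave 1 with no filter (0 as reported), and 20 µg/mL gave 0 with only the groups compared and 0 to 1 on leaving out a library (1 as reported). For Yijin-tang, 20 µg/mL gave 4 with no filter, 0 with only the groups compared, and 1 to 3 on leaving out a library (2 as reported). For Okbyeongpung-san, 100 µg/mL gave 1 with DESeq2, 1 with no filter, 1 with the replicate block and 0 to 1 on leaving out a library (0 as reported), and 20 µg/mL gave 1 with no filter (0 as reported). Smaller moves, on leaving out a library, were 4 to 5 for Soshiho-tang at 500 µg/mL against vehicle (5 as reported), 3 to 4 for Yijin-tang (3), 3 for Okbyeongpung-san at 500 against 20 µg/mL (4), 2 to 3 for Yijin-tang against Okbyeongpung-san (3, and 4 with no filter) and 2 to 3 for the interaction (2, and 3 with DESeq2, no filter or 27 libraries in a fit). The sign of uncalled log2 values turned for AKR1B1 against vehicle, which lay between -0.68 and 1.03 with Soshiho-tang and between -1.24 and 0.47 with Yijin-tang on leaving out a library (positive without vehicle replicate 1), and was 0.83 with Okbyeongpung-san under the replicate block. It also turned for AKR1C2 in Soshiho-tang against Okbyeongpung-san, between -0.16 and 0.028 on leaving out a library. The AKR1C sum of Yijin-tang at 20 µg/mL was 75.13 CPM with AKR1C4 added (74.8 as reported). On plain library totals 5 of 78 group means moved by more than the SD, or, for the 18 of single Soyo-san libraries, out of the 95% counting interval, for example AKR1B10 to 256.6 CPM with Soshiho-tang at 500 µg/mL. AKR1C3 in Yijin-tang against Okbyeongpung-san passed with no filter (-0.35, edgeR adjusted p = 5.3e-06). The causes were not tested.

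Counts over all genes moved more than those of the members. Against vehicle at 100 µg/mL, fits of only the groups compared gave 559 genes with Soshiho-tang (2911 as reported), 575 with Yijin-tang (2924) and 3 with Okbyeongpung-san (17). At 20 µg/mL they gave 362, 498 and 18 genes, where 1488, 1457 and 22 were reported higher and 1189, 1221 and 21 lower. With only the groups compared, Yijin-tang at 500 µg/mL gave 1042 genes against vehicle (3396 as reported) and 869 against 20 µg/mL (305), Okbyeongpung-san 216 against vehicle (690) and 938 against 20 µg/mL (88), Soshiho-tang 1840 against Okbyeongpung-san (1132), Yijin-tang 159 against Okbyeongpung-san (55), and the interaction 1352 (745). Okbyeongpung-san against vehicle gave 2991 when 27 libraries shared a fit and 55 to 1298 on leaving out a library. Same-numbered libraries of vehicle, Soshiho-tang and Yijin-tang, all of batch E, did not deviate together (63 pairs, r between -0.06 and 0.06) and share only a number; 10 of 21 libraries were closest to their own number, and the replicate block moved no count of genes at 500 µg/mL in these groups by 1.5 times. The block ended no call of a member at 500 µg/mL. AKR1B1, at 1 to 41 counts per library, is limited by depth.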
